A study of Mus musculus with 24 samples.

Results

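The response of the adrenal gland to castration was measured in wild-type (WT) male mice of the C57BL/6 strain, as 3 arrays labelled castrated against 3 arrays labelled sham, chosen by those labels from the 24 arrays of the series. The other 18 arrays came from males of the same strain null for Kcnk3 (sham or castrated) and from females, WT or null for Kcnk3, that were sham or received testosterone by injection, with 3 arrays in each of the 8 groups. Kcnk3 encodes the background potassium channel TASK1. The labels used here give no age, no time after surgery and no hormone dose. They number the arrays of a group without saying that each came from a separate animal, so p-values measure the spread between these arrays, which may be technical. Each sample was total adrenal RNA on a one-colour Agilent array. A level is the log2 background-subtracted signal minus the 75th percentile of its array, and a difference is castrated minus sham on that log2 scale, with its standard error (SE), for 3 arrays against 3. Across a whole gland, fewer cells of a type and less RNA per cell cannot be told apart.

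The adrenal cortex makes mineralocorticoids in its outer zona glomerulosa and glucocorticoids in the zona fasciculata beneath, and it surrounds a medulla of catecholamine-secreting chromaffin cells. In mice a further layer, the X-zone, lies between cortex and medulla. It is a remnant of the fetal cortex that regresses in males at puberty, when androgens rise, and persists longer in virgin females, and its cells are marked by Akr1c18. Castration removes the testes and with them the main source of androgen.

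The 6 arrays had 57.0% to 64.7% of their spots well above background. Within-group correlations between arrays ranged from 0.959 to 0.987. Sham array 3 stood apart: the summed level of 20 liver markers, on the linear scale relative to the 75th percentile, was 1678 there against 250 and 271 on the other sham arrays and 135 to 173 on the castrated arrays. Its level of Alb, the liver's serum albumin, was 7.38, against -1.17 and -4.04 on sham arrays 1 and 2. Castrated array 2 stood apart in skeletal muscle markers, 8 genes with a summed level of 344.6 against 0.36 to 0.58 on the other 5 arrays. All 7 red blood cell markers measured were lower after castration without a call by limma (median -1.89, 6 at an unadjusted p below 0.05), with summed levels of 804, 260 and 392 in sham and 105 to 157 in castrated arrays. The 14 adipocyte markers were also all lower without a call (median -0.66, 6 at an unadjusted p below 0.05), with summed levels of 1248 to 1742 in sham and 1011 to 1167 in castrated arrays. The part of these other tissues in the results below was not tested, apart from values given without sham array 3 or castrated array 2. Kcnk3 checked the genotype label. Its levels were 5.73, 5.64 and 5.00 in sham and 5.70, 5.64 and 5.31 in castrated arrays, a difference of 0.09 ± 0.32 SE (limma, adjusted p = 1), and they lay above the 6 null male arrays, which were at 2.84 to 4.96. All null male arrays were above background for this probe, whose position relative to the deleted part of the gene is not given in the sources used here.

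Most of the features called after castration were higher. Of 31038 features tested, 186 (0.599%) were called at a limma p below 0.05 after Benjamini-Hochberg adjustment over all features: 155 (0.499%) were higher and 31 (0.0999%) lower after castration. Among the called features, 72 were higher and 8 lower by more than 4-fold, and the median difference was 1.85 for the rises and -1.39 for the falls. The median over all features was -0.05, and 1900 features had an unadjusted p below 0.05. The 2 groups did not overlap in any called feature, where 7.98% of all features lay wholly higher and 8.05% wholly lower in castrated arrays. Without each array in turn, the count ranged from 81 (without castrated array 1) to 131 (without sham array 3), and it was 99, 103, 114 and 113 without sham array 1, sham array 2, castrated array 2 and castrated array 3. In this group the replicate number is also the slide number, and with slide as a block the count was 326 (254 higher, 72 lower), against 222 (186 higher, 36 lower) with the replicate number of all groups as a block. Fitted on the 6 arrays alone, limma called 118 (106 higher, 12 lower) without a block. With slide as a block it called 0 on those arrays (4191 at an unadjusted p below 0.05). With array weights over all groups limma called 653 higher and 546 lower.

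**Figure D1:**
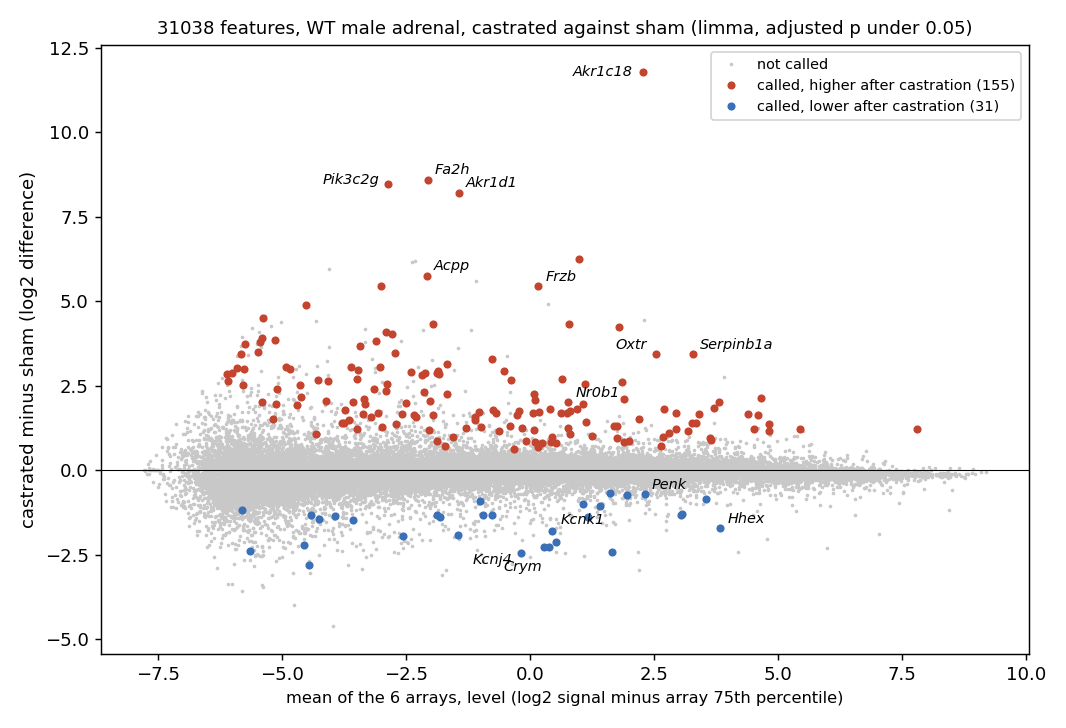
Difference between castrated and sham WT males (log2, vertical axis) against the mean level of the 6 arrays (log2 signal minus the array's 75th percentile, horizontal axis) for 31038 features, with the 155 called rises in red and the 31 called falls in blue. Akr1c18 stands alone at a difference of 11.77, and no called fall is as far from 0 as the farthest rises.

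The largest rise was in Akr1c18, which encodes a hydroxysteroid dehydrogenase that inactivates progesterone and marks the X-zone. Its levels were -3.27, -3.97 and -3.56 in sham arrays and 8.33, 8.35 and 7.82 in castrated arrays. All 3 castrated arrays lay far above all 3 sham arrays, a difference of 11.77 ± 1.75 SE or 3490-fold (adjusted p = 0.00205). The SE pools the spread of all 8 groups; the SD was 0.35 in WT sham and 0.30 in WT castrated males, and 6.01 in null sham males. Pik3c2g, a class II phosphoinositide kinase subunit that is also an X-zone marker, was below background on all sham arrays (-7.40, -7.44 and -6.47) and at 1.03, 1.86 and 1.21 after castration. It rose at least 117.6-fold (adjusted p = 0.00339). A lower bound of this kind sets the castrated mean against the lowest signal well above background on the sham arrays. A second Pik3c2g probe read -0.84 (adjusted p = 1). The third X-zone marker on the list, the thyroid hormone receptor gene Thrb, had levels of 0.58, 0.66 and 0.67 in sham and 1.71, 1.92 and 1.50 in castrated arrays and was not called (1.07, adjusted p = 0.116). The summed level of the 3 markers was 1.60 to 1.69 in sham arrays and 231 to 334 in castrated arrays.

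Akr1d1, the reductase that saturates the A ring of steroid hormones and bile acid precursors, had levels of -7.36, -6.22 and -3.05 in sham and 2.72, 2.59 and 2.69 in castrated arrays. The castrated arrays were closely grouped and the sham arrays were spread over several log2 units, and the difference was 8.21 ± 1.20 SE (adjusted p = 0.0018). The 1 sham array above background was sham array 3, the one with liver transcripts, so the size is set by signal near background; without that array the difference was 9.45 (adjusted p = 0.0014). Fa2h, the hydroxylase of sphingolipid fatty acids, was at -6.96, -4.19 and -7.96 in sham arrays, where it was above background on 1 of 3, and at 1.97, 2.57 and 2.15 after castration. It rose by 8.60 ± 1.07 SE (adjusted p = 0.000463). Acer1, an alkaline ceramidase, was below background on all sham arrays and rose at least 4.49-fold, Smpdl3b, a phosphodiesterase related to sphingomyelinase, rose by 2.92 ± 0.63 SE (adjusted p = 0.0349), and Sptlc2, a subunit of the enzyme that begins sphingolipid synthesis, rose by 0.68. Olah, a thioesterase that releases fatty acids from fatty acid synthase, rose by 3.81 ± 0.70 SE (adjusted p = 0.0106). Acer1 and Sptlc2 were chosen after their values were seen, and sphingolipid genes were not read as a list, so members that did not move were not counted. Adh1, an alcohol dehydrogenase chosen after its values were seen, went from 7.12, 7.26 and 7.19 in sham to 8.59, 8.57 and 8.11 in castrated arrays, and its neighbour Adh7 rose by 2.68. When single arrays were left out, the adjusted p of Olah reached 0.0903 and that of Smpdl3b 0.184, while Akr1c18, Akr1d1, Fa2h and Pik3c2g stayed called, with adjusted p up to 0.0234.

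None of 14 measured members of the steroid synthesis list was called. Beside 0.599% called of all features, most lists of this size would hold 0. The differences ran from -0.29 for Cyp11a1, the enzyme that begins steroid synthesis from cholesterol, to 0.36 for Hsd3b6. The median was -0.02, and 0 had an unadjusted limma p below 0.05. Star, which delivers cholesterol to mitochondria, differed by 0.19. Cyp11b1, which completes corticosterone in the zona fasciculata, differed by 0.08, and Cyp11b2, which makes aldosterone in the zona glomerulosa, by -0.20. Of 27 measured steroid-metabolizing enzymes, Akr1d1 was the 1 called, beside 0.499% of all features called higher. Of the 27 enzymes, 17 had negative differences (median -0.17) and 10 had an unadjusted p below 0.05. Their summed level was 190 to 202 in sham and 147 to 160 in castrated arrays. Srd5a2, a steroid reductase, went from 5.80, 5.83 and 5.78 to 2.95, 4.27 and 4.08 without a call (-2.04, adjusted p = 0.164). Its groups did not overlap. Srd5a1, which reduces testosterone to the more potent dihydrotestosterone, had a difference of 0.84 (adjusted p = 0.075), and Akr1c13 0.99 (adjusted p = 0.0705). In cholesterol synthesis and uptake, 1 of 30 measured genes was called higher (0.499% of all features) and 20 had positive differences (median 0.24).

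Among transcriptional and hormonal regulators, Nr0b1 rose. It encodes DAX-1, an orphan nuclear receptor that represses the steroidogenic factor encoded by Nr5a1. Its levels were -0.44, -0.20 and -0.09 in sham and 2.07, 1.62 and 1.63 in castrated arrays (2.02 ± 0.28 SE, adjusted p = 0.00145). It was the 1 called gene of 14 measured steroidogenic transcription factors, beside 0.499% of all features called higher, a share that also stands beside the counts for the Wnt and cyclic nucleotide lists, and Nr5a1 itself differed by 1.00 ± 0.26 SE (adjusted p = 0.124). Oxtr, the receptor of oxytocin, rose from 0.86, 0.87 and 0.73 to 4.42, 4.35 and 3.98 (3.43 ± 0.55 SE, adjusted p = 0.00361). Frzb, a secreted antagonist of Wnt ligands, was at -2.69, -2.01 and -2.95 in sham and 3.39, 2.91 and 2.36 in castrated arrays. The groups were separated by several log2 units (5.44 ± 0.56 SE, adjusted p = 6.5e-05), and Frzb was the 1 called gene of 34 measured on the Wnt list (median 0.02), which does not hold Wnt9b, a called fall given below. Pde7a, a phosphodiesterase that degrades cyclic AMP, rose from -0.53, -0.52 and -0.48 to 1.40, 1.10 and 1.37 (1.80 ± 0.19 SE, adjusted p = 0.000105). It was the 1 called gene of 33 in cyclic nucleotide signalling, and a second Pde7a probe read 1.31 (adjusted p = 0.17).

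Several of the other large rises encode proteins with different roles. Cst8, a cystatin known from the epididymis, was at -1.35, -1.64 and -1.17 in sham and 2.82, 3.39 and 2.63 in castrated arrays (4.33 ± 0.44 SE, adjusted p = 6.29e-05). Serpinb1a, an inhibitor of neutrophil serine proteases, rose from 1.20, 1.74 and 1.77 to 5.30, 5.04 and 4.65 (3.43 ± 0.49 SE, adjusted p = 0.00147). Its paralogue Serpinb1c went from -5.21, -4.64 and -3.53 to -1.36, -1.40 and -0.23 (3.46 ± 0.68 SE, adjusted p = 0.0185), and Serpinb1b differed by 1.76 without a call (adjusted p = 0.0909). The 3 paralogues are similar in sequence, and signal shared between their probes was not tested. Nrep, a protein found in regenerating neurons, rose from -0.49, -0.16 and -0.31 to 3.94, 3.98 and 3.79 (4.22 ± 0.47 SE, adjusted p = 0.000176). Acpp, the prostatic acid phosphatase, rose from -5.45, -4.48 and -4.97, above background on 2 of 3 sham arrays, to 0.84, 0.98 and 0.54 (5.75 ± 0.81 SE, adjusted p = 0.00147). Oosp1, an oocyte-secreted protein, rose by 4.08 ± 0.65 SE (adjusted p = 0.00319), and Oosp2 beside it rose at least 3.87-fold. Mmel1, a membrane metalloendopeptidase, rose by 1.62 ± 0.25 SE (adjusted p = 0.0029). With single arrays left out, Serpinb1c reached an adjusted p of 0.135, and Cst8, Nrep, Acpp, Oosp1, Mmel1 and Serpinb1a stayed called.

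Of 20 measured genes of innate inflammation, 2 were called higher, beside 0.499% of all features. Ccl2, the chemokine that attracts monocytes, went from -2.27, -2.11 and -1.60 to 1.28, 0.77 and 0.77 (2.93 ± 0.62 SE, adjusted p = 0.0324, and up to 0.192 with single arrays left out). Clec4e, a receptor of myeloid cells for damaged cells and mycobacteria, was below background on all sham arrays (-7.60, -7.54 and -7.75), was at -2.90, -2.87 and -3.63 after castration, and rose at least 5.19-fold (adjusted p = 0.000381). Clec4e lost its call with normexp background correction and quantile normalization and in the deposited value table. None of 13 measured macrophage, 12 lymphocyte or 15 antigen presentation genes was called by limma, beside 0.599% of all features. In that order, 2, 0 and 4 had an unadjusted limma p below 0.05. The summed level of the innate list was 4.1, 4.1 and 219 in sham and 7.1 to 19.6 in castrated arrays, the high value lying on sham array 3, where the acute phase genes Saa1 and Saa2 had levels of 6.91 and 6.53.

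**Figure D2:**
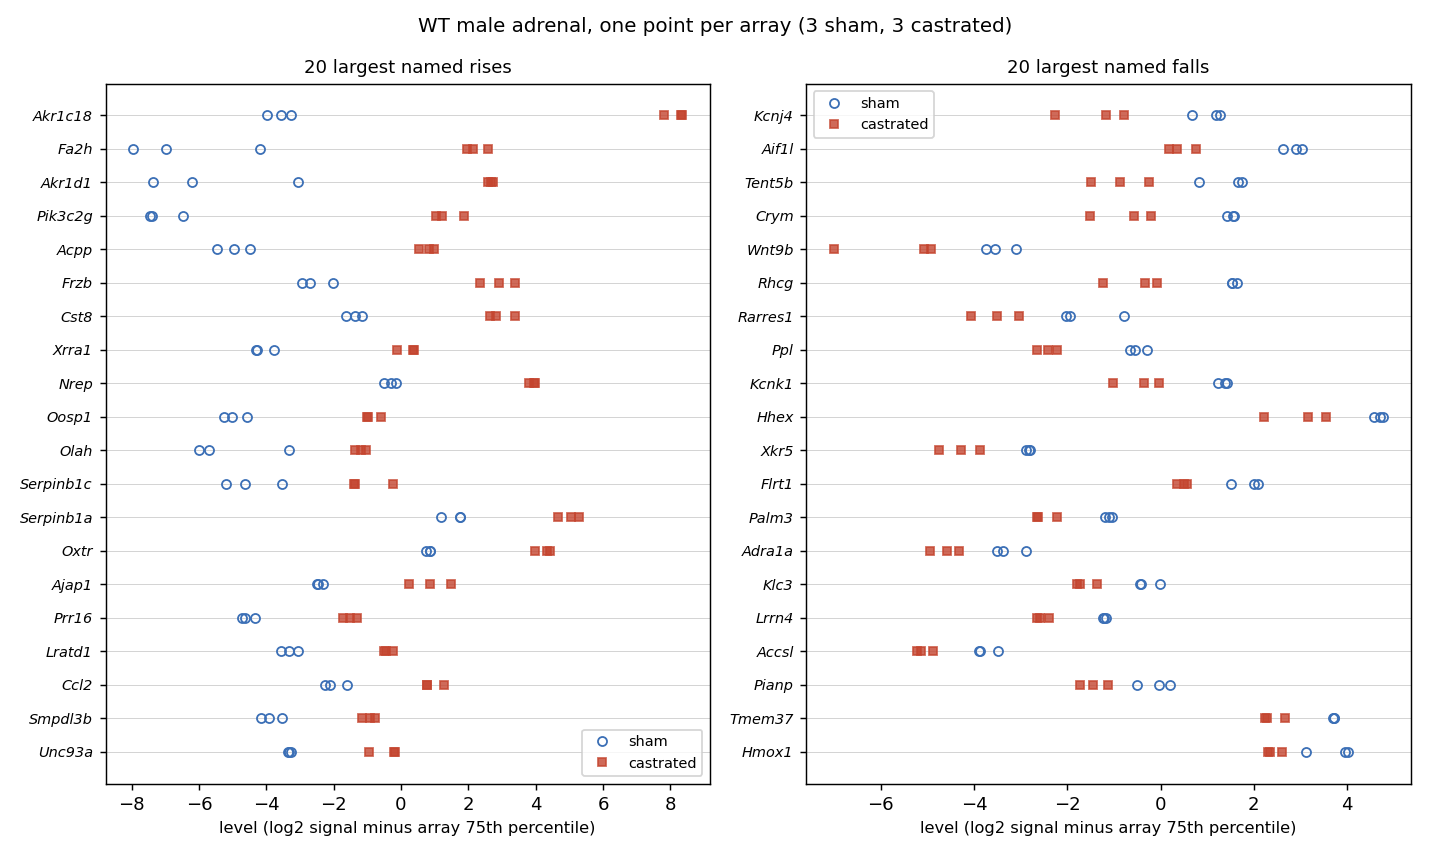
Levels (log2 signal minus the array's 75th percentile) of the 20 largest named rises (left) and 20 largest named falls (right) on each of the 3 sham (open blue circles) and 3 castrated (red squares) arrays. In every gene the groups are separate, most widely in Akr1c18, where sham arrays lie between -3.97 and -3.27 and castrated arrays between 7.82 and 8.35.

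The start-site regions of the called genes were read because androgen acts through a defined DNA element. RefSeq promoters of GRCm38.p6 (250 bases before to 50 after the start) matched 84 called rises and 18 called falls. A gene with more than 1 start site was counted once, as a match if any of its promoters matched. The full palindrome of that element, in which AGAACA faces its own complement across 3 bases, was in 0 of 84 rises, 0 of 18 falls and 1 of 13460 tested genes with a promoter. AGAACA alone, on either strand, which every palindrome also holds, was in 19 of 84 rises (22.6%), 2 of 18 falls (11.1%) and 2186 of 13460 of all (16.2%). The monomer element CAAGGTCA of the Nr5a1 product, a motif chosen after the data were seen, was in 2 of 84 rises (Aldh3b1 and Cst8), 1 of 18 falls (Kcnf1) and 194 of 13460 of all (1.44%). A match describes letters in this window. The 250 bases before the start are shown for Akr1c18, the largest rise, and for 3 rises that hold AGAACA or an Nr5a1 element, each 5′ to 3′ on the strand of the gene with the matched letters in capitals. Akr1c18 lies on the minus strand at chr13:4150647-4150896 and holds neither motif, and Cst8 lies on the plus strand at chr2:148798589-148798838 with CAAGGTCA. Mmel1 (plus strand, chr4:154869335-154869584) and Oosp1 (minus strand, chr19:11691052-11691301) hold AGAACA.
Akr1c18: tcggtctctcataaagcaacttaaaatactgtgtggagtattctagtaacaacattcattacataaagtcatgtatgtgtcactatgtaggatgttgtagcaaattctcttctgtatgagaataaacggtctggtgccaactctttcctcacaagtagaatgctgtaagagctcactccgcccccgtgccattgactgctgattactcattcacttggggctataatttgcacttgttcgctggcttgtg
Cst8: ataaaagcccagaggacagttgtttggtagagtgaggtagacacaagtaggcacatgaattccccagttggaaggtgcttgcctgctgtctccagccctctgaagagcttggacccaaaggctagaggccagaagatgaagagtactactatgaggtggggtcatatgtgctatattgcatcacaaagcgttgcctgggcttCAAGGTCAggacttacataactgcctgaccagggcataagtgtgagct
Mmel1: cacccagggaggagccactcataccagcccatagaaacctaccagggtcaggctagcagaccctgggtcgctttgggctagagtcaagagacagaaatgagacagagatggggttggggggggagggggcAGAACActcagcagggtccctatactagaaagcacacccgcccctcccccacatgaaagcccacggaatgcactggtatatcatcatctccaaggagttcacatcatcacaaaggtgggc
Oosp1: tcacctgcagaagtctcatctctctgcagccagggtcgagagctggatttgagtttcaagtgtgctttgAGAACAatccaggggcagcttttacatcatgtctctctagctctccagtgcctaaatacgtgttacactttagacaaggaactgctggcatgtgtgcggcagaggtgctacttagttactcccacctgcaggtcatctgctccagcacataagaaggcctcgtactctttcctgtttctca

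The largest named fall was in Kcnj4, an inward rectifier potassium channel, which went from 1.28, 1.20 and 0.67 in sham to -2.26, -0.78 and -1.18 in castrated arrays (-2.45 ± 0.48 SE, adjusted p = 0.0185). Kcnk1, a two-pore background channel of the same family as Kcnk3, went from 1.42, 1.38 and 1.22 to -1.02, -0.03 and -0.36 (-1.81 ± 0.37 SE, adjusted p = 0.0244). It was the 1 called gene of 22 on the list of potassium channels, beside 0.0999% of all features called lower. That list holds neither Kcnj4 nor Kcnf1, and 13 of its genes had positive differences. Kcnf1, a modifier subunit of voltage-gated channels chosen after its values were seen, was below background on all castrated arrays and fell at least 2.07-fold (adjusted p = 0.000334). Kcnk9, which encodes the relative TASK3 and marks the zona glomerulosa, differed by -1.19 without a call (adjusted p = 0.0989).

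Crym, which encodes a cytosolic thyroid hormone-binding protein, went from 1.58, 1.43 and 1.54 to -1.52, -0.20 and -0.56 (-2.28 ± 0.40 SE, adjusted p = 0.00797). Aif1l, an actin-binding protein, went from 3.03, 2.90 and 2.63 to 0.19, 0.76 and 0.35 (-2.42 ± 0.37 SE, adjusted p = 0.00287). Ppl, a cytolinker of desmosomes, went from -0.29, -0.66 and -0.54 to -2.64, -2.22 and -2.42 (-1.93 ± 0.25 SE, adjusted p = 0.000989). Hhex, a homeobox transcription factor, went from 4.71, 4.58 and 4.77 to 2.22, 3.55 and 3.15 (-1.71 ± 0.31 SE, adjusted p = 0.00982). In Crym, Hhex and Kcnj4 castrated array 1 was the lowest of the 3. Wnt9b, a Wnt ligand above background on 2 of 3 castrated arrays, fell by 2.21 (adjusted p = 0.0301), Rhcg, an ammonia transporter, by 2.13 (adjusted p = 0.0389), and Adra1a, an adrenergic receptor, by 1.36 (adjusted p = 0.035). Hmox1, the heme oxygenase, went from 3.96, 4.01 and 3.12 to 2.35, 2.60 and 2.31 (-1.28 ± 0.26 SE, adjusted p = 0.0253) and was the 1 called gene of 39 measured in glutathione and antioxidant defence (0.0999% of all features were called lower). Red blood cell transcripts were also lower in the castrated arrays, as given above, and their part in the Hmox1 value was not tested. Penk, the enkephalin precursor made by chromaffin cells, went from 2.74, 2.70 and 2.55 to 1.90, 2.01 and 1.98 (-0.70 ± 0.12 SE, adjusted p = 0.00663), while 13 of the 15 measured chromaffin genes had positive differences.

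Many calls were lost when a single array was left out. Of the 47 called genes that the naming rule took, all kept their sign with any array left out, but 18 of 21 falls and 7 of 26 rises lost their call without sham array 1, and 19 falls and 7 rises without castrated array 1. Without sham array 3, which holds the liver transcripts, 11 falls and 5 rises lost it, and without castrated array 2, which holds the muscle transcripts, 9 falls and 5 rises. The corresponding numbers were 15 and 6 without sham array 2, and 14 and 5 without castrated array 3. Aif1l and Ppl kept the call in each of these. The highest adjusted p with an array left out was 0.0799 for Crym, 0.0812 for Hhex, 0.156 for Kcnj4, 0.199 for Kcnk1, 0.177 for Hmox1 and 0.0539 for Penk. It was 0.311 for Rhcg and 0.235 for Adra1a, which lost the call without any 1 of the 6 arrays, and 0.185 for Wnt9b.

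Counts of called members in the lists of cortical zones and other cell types are read against 0.599% called of all features, a share at which most lists of this size would hold 0. None of 15 measured zona glomerulosa genes and none of 14 of the zona fasciculata and its response to ACTH was called by limma, with 2 and 4 at an unadjusted p below 0.05. Dab2, a zona glomerulosa marker, differed by 0.54 (adjusted p = 0.425), and Sgk1, a glucocorticoid-induced kinase, by 0.59 (adjusted p = 0.317). Gonadal-like cells can arise in the mouse adrenal after removal of the gonads. Of their 15 measured markers none was called and 3 had an unadjusted limma p below 0.05, with 1.57 for Hsd17b1, an estrogen-forming dehydrogenase (adjusted p = 0.166), and -0.60 for Sox9, a Sertoli cell transcription factor (adjusted p = 0.35). Lists of hedgehog signalling and capsule (17 genes), collagens and laminins (21), the renin-angiotensin system (12), calcium channels, pumps and kinases (26) and endothelium (14) had 0 calls by limma and, in that order, 2, 0, 0, 2 and 1 genes at an unadjusted p below 0.05. The cell cycle list also had 0 calls of 28 by limma, with 6 at an unadjusted p below 0.05, and 27 members had positive differences, with a median of 0.43 against -0.05 over all features; the mitotic kinesin gene Cenpe read 0.96 (adjusted p = 0.354). The muscle list had a median of 3.0 with 0 calls and 0 unadjusted limma p below 0.05, castrated array 2 alone being high. Immediate early genes varied from array to array, such as Fos at -1.19, -0.44 and 2.81 in sham and -3.24, 3.21 and 1.45 in castrated arrays.

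Genes grouped as androgen-repressed or androgen-raised in earlier results of these data were also read. All 5 on the androgen-repressed list were called higher after castration, beside 0.499% of all features: Akr1d1, Cst8, Nrep, Ms4a10, a tetraspan membrane protein (2.09 ± 0.41 SE, adjusted p = 0.0185), and Mmel1. The 4 measured genes on the androgen-raised list all had negative differences, and Crym was called, beside 0.0999% of all features called lower. The others were Susd3 at -2.41 (adjusted p = 0.482), Acan, the cartilage proteoglycan aggrecan, at -2.36 (adjusted p = 0.116), and Cited1, a transcriptional coactivator, at -1.77 (adjusted p = 0.483). These lists were chosen on arrays of this series, which may include those of WT males. Their counts here are therefore not independent evidence of direction or of calls.

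**Figure D3:**
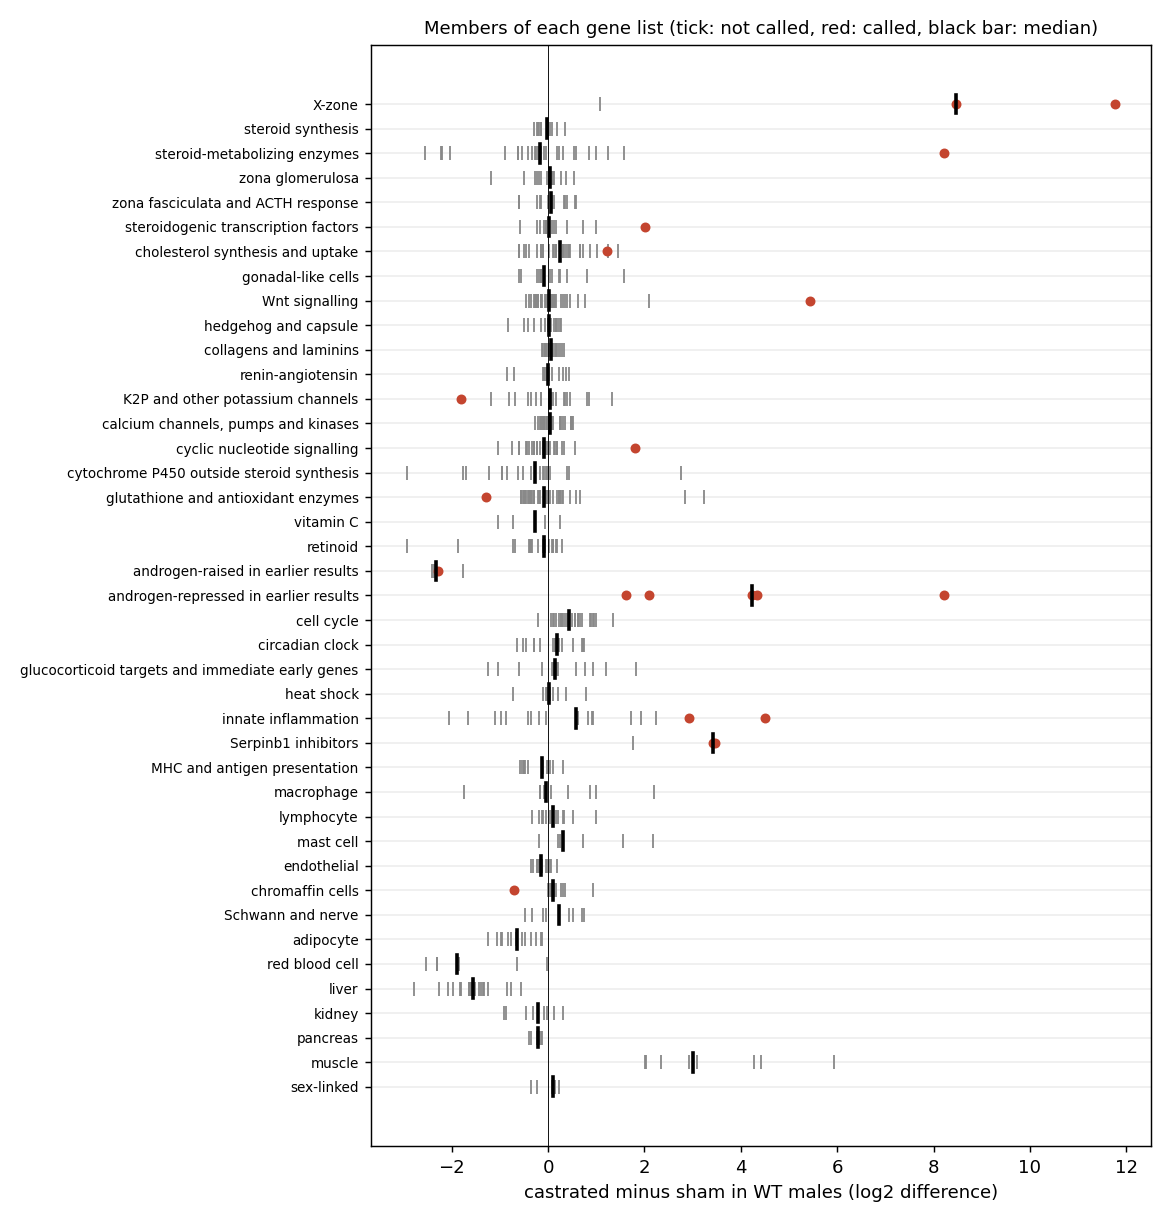
Difference between castrated and sham WT males (log2) for each measured member of the gene lists described here, one row per list, with called members as red points, other members as grey ticks and the median as a black bar. Most lists centre near 0 with no red point, while the X-zone list reaches 11.77.

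Levels of these genes were then set side by side over all 8 groups, after a check of the sex labels. Xist, expressed from the inactive X chromosome, was below background on all 6 WT male arrays, and the Y-linked Ddx3y was at 2.0 to 2.3 there. All 6 null male arrays had Xist above background, at -3.28 to -1.54 on sham arrays 1 and 2 and castrated arrays 1 and 2. Of the WT female arrays, sham 2 and 3 and all 3 with testosterone carried Ddx3y at -0.33 to 0.61, and sham 1 at -4.70. In all, 12 arrays outside the WT males held opposing sex-linked signal above background. The 9 strongest (null males with Xist at -3.28 or more, WT females with Ddx3y at -0.33 or more, a limit set with the values known) were left out as an alternative, and null male sham array 3 (Xist -4.79), null male castrated array 3 (-5.34) and WT female sham array 1, which stay in it, carry weaker signal of the same kind. Groups are given below as labelled.

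Mean Akr1c18 levels were 8.17 in castrated WT males, 7.98 in WT sham females, 7.68 in castrated null males, 6.38 in testosterone-injected WT females, 5.19 in null sham females, 3.29 in null sham males, -3.39 in testosterone-injected null females and -3.60 in WT sham males. The first 3 differed by less than the SD of WT sham females, 0.81, and the lowest pair by less than the SD within each. The null sham males were split, with 6.51, 7.00 and -3.65 on arrays 1, 2 and 3, where Xist was at -3.11, -3.20 and -4.79. Whether the split and the Xist signal are related was not tested. Frzb had means of 2.89 in castrated WT males against 3.51 in WT sham females and -2.55 in WT sham males, the lowest of the 8 groups. Oxtr was likewise lowest in WT sham males, at 0.82, and at 1.60 to 4.67 in the other 7 groups. Among the falls, Kcnj4 was at 1.05 in WT and 0.65 in null sham males and between -2.63 and -0.83 in the other 6 groups. Crym had means of 1.52 and 1.15 in WT and null sham males, 0.04 in testosterone-injected null females and -3.04 to -0.57 in the rest. Kcnk1 was at 1.34 and 1.46 in the 2 sham male groups, 0.82 and 0.08 in testosterone-injected null and WT females and -1.51 to -0.47 in the others.

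**Figure D4:**
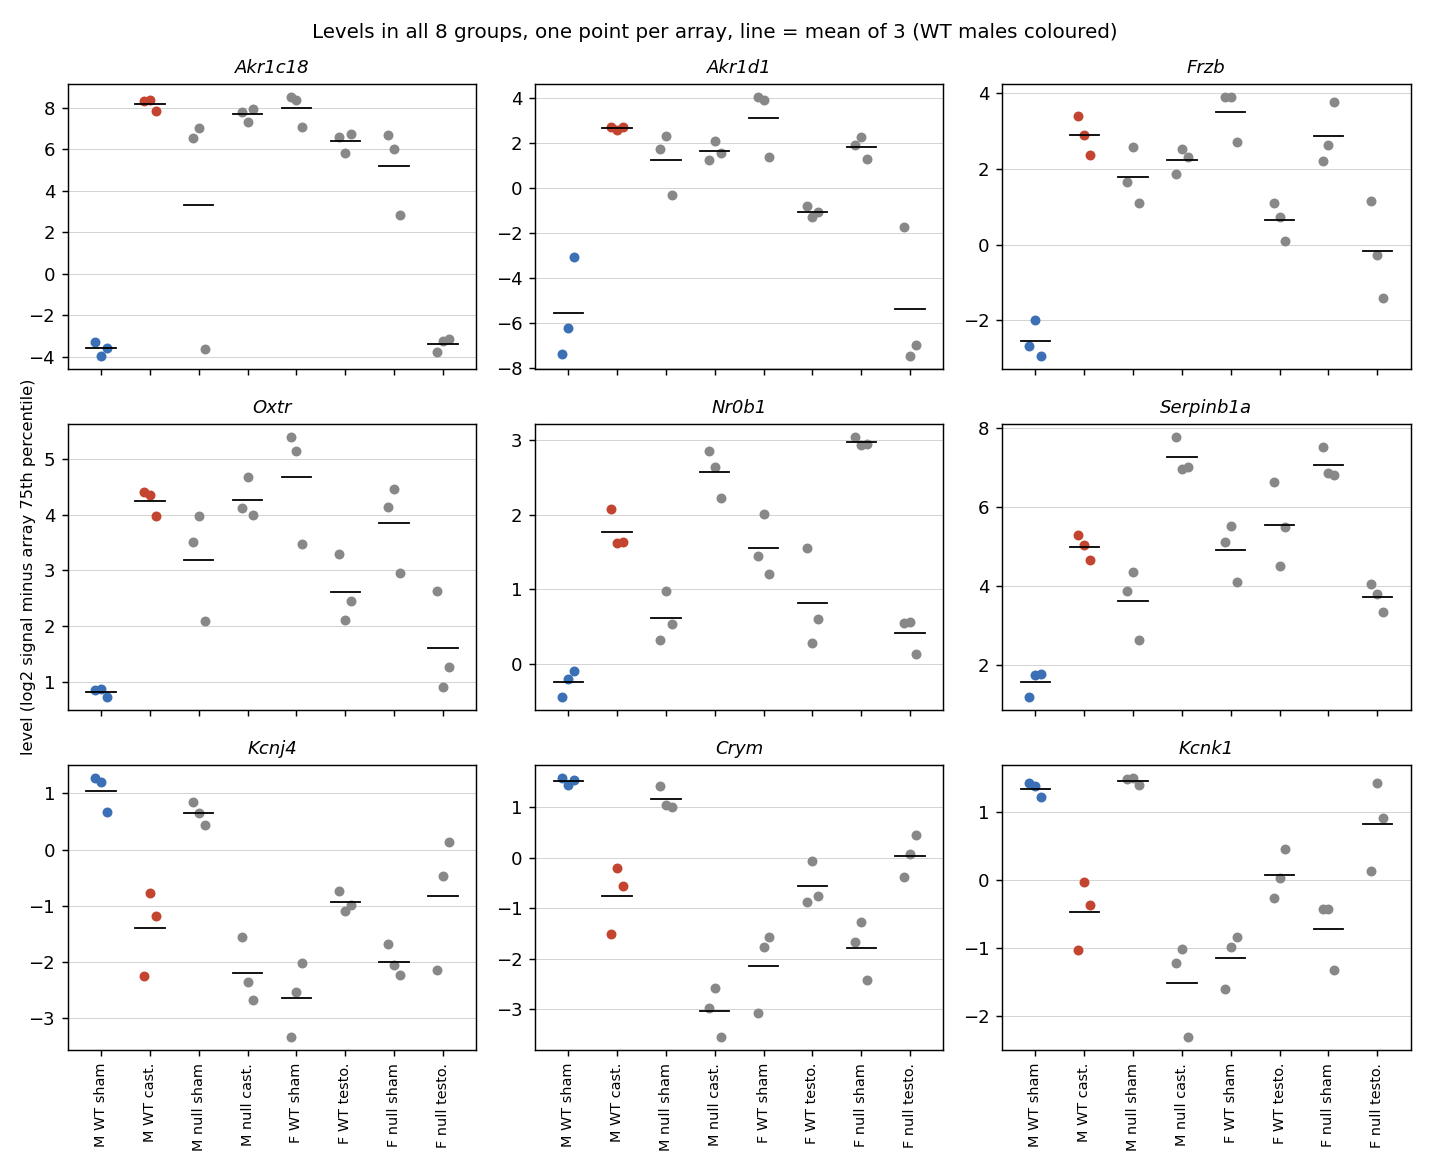
Levels (log2 signal minus the array's 75th percentile) of 6 genes that rose and 3 that fell in WT males, on all 24 arrays, with a line at the mean of each group of 3 and WT males in colour. The mean of WT sham males (blue) is the lowest of the 8 in each of the 6 rises, with that of null females given testosterone close by for Akr1c18 (-3.60 and -3.39), and castrated WT males (red) reach 8.17 there against 7.98 in WT sham females.

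Over the 24 arrays, the genes whose levels correlated best with Akr1c18 were Pik3c2g (Pearson's r = 0.98), Acpp (0.95), Nrep (0.93), Cst8 (0.91) and Fndc5 (0.91), the precursor of irisin. With Kcnj4 they were St6galnac2, a sialyltransferase (0.96), Flrt1, a leucine-rich membrane protein (0.96), Myo1a, a brush-border myosin (0.95), Camkk1, a calcium-dependent kinase (0.95), and Klc3, a kinesin light chain (0.95). These are descriptions over arrays that share 8 groups and 4 slides.

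The 186 features were then read in 3 comparisons whose groups share no array with WT males. The SE of each feature still pools the spread of all 8 groups. A call in WT males therefore favours features with a small SE in these comparisons too, and the counts of calls there are not independent of that choice. In males null for Kcnk3, castrated against sham, 312 features (1.01%) were called. Of the 155 WT rises 143 had positive differences there (median 0.71) and 13 were called higher, against 0.425% of all features, and 49.6% of all features had positive differences. All 31 WT falls had negative differences there (median -1.35), and 17 were called lower, against 0.58% of all features. Without the 9 arrays with the strongest opposing sex-linked signal, which leaves 1 null array in each group, 12 features were called in place of 312, 5 of them shared, and 150 of 155 rises were positive (median 1.02) and 30 of 31 falls negative (median -1.51), with 52.7% of all features positive. Serpinb1a and Nr0b1 rose in the null males too, by 3.64 (adjusted p = 0.00061) and 1.96 (adjusted p = 0.0014). Crym fell by 4.20, Kcnk1 by 2.97, Kcnj4 by 2.84 and Hhex by 2.45 in them, with adjusted p from 3.1e-05 to 0.0043.

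In females the comparison was testosterone against sham, with doses and times that the labels used here do not give. In females labelled WT, 28 features (0.0902%) were called. Of the 155 castration rises 148 had negative differences there (median -1.08) and 13 were called lower, against 0.058% of all features, and 46.1% of all features had positive differences. Of the 31 falls 28 were positive (median 0.70), and Accsl and Penk were called higher, against 0.0322% of all features. Sham array 3 and testosterone array 3 of the WT females had an RNA integrity number of 3 and a slide of their own. The other WT female arrays had 7 or 8. Without testosterone array 3, 7 features were called (0 higher), 4 of them among the 28. Without sham array 3, 45 were called (7 higher), 15 of them among the 28. In females labelled null, where testosterone array 3 had an RNA integrity number of 5, 65 features (0.209%) were called. There 146 of 155 rises were negative (median -0.75) with 13 called lower, against 0.18% of all features, and 29 of 31 falls were positive (median 0.57) with Rarres1 called higher, against 0.029% of all features; 44.6% of all features had positive differences. Akr1d1, above background on 1 of the 3 arrays with testosterone, fell by 7.21 (adjusted p = 0.013), Serpinb1a by 3.33 (adjusted p = 0.0049), Frzb by 3.04 (adjusted p = 0.029) and Nr0b1 by 2.56 (adjusted p = 0.00067) in null females given testosterone. Testosterone array 1 (Akr1d1 at -1.73, against -7.45 and -6.97) is the other array of the series with liver transcripts. The size of the Akr1d1 fall is therefore set by signal near background. Without this array and WT male sham array 3, limma called 30 higher and 43 lower in null females, against 9 and 56. In females labelled WT, Serpinb1a had a positive difference instead (0.65, not called). There Akr1d1 differed by -4.16 (limma, adjusted p = 0.3) and Frzb by -2.87 (adjusted p = 0.0523), neither called. With the limma fit limited to the groups compared, 0 features were called in either female comparison, with 953 (WT) and 1158 (null) at an unadjusted p below 0.05.

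**Figure D5:**
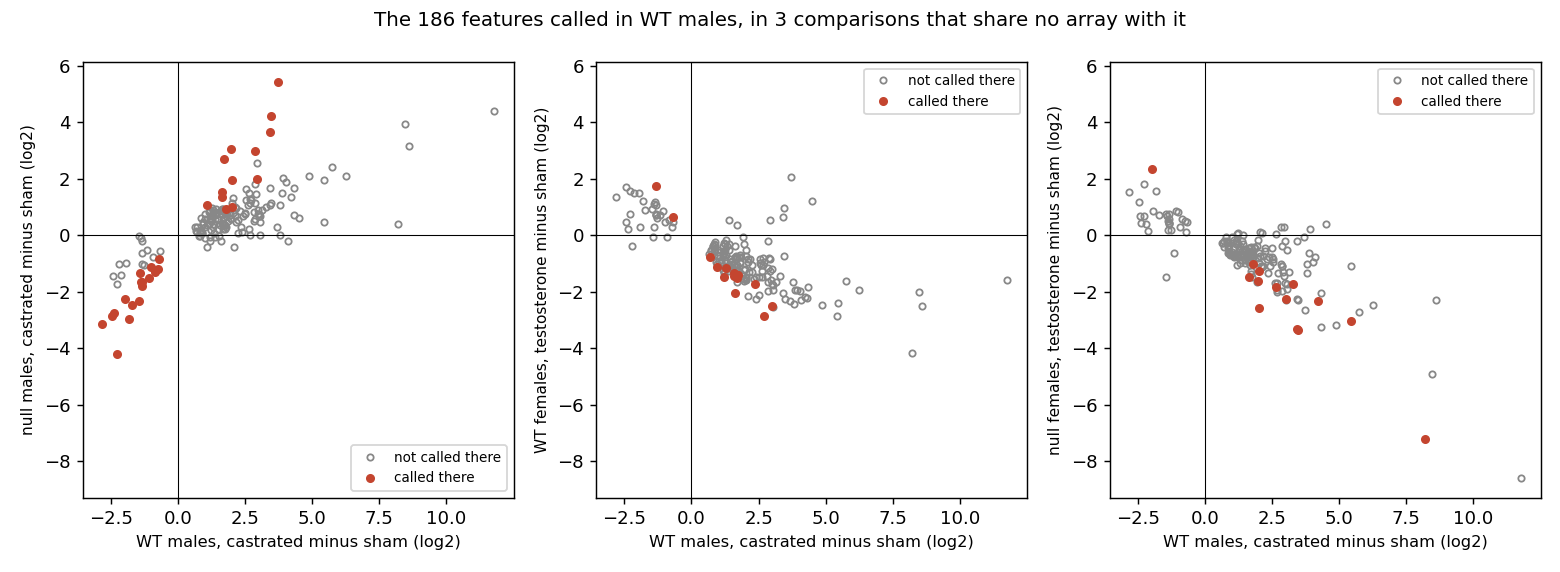
Each of the 186 features called in WT males, with its castration difference (log2, horizontal axis) against its difference in null males after castration (left), WT females after testosterone (middle) and null females after testosterone (right), red where it was called there too. In the left plot 143 of 155 rises and all 31 falls keep their sign, and in the other plots 148 and 146 of 155 rises are negative.

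The difference between the castration responses of WT and null males was tested as an interaction. It called 25 features (0.0805%), 15 (0.0483%) with a larger and 10 (0.0322%) with a smaller signed difference in WT. Of these, 5 were also called in WT males, all with larger rises there: Frzb by 4.98 (adjusted p = 0.0168), Cst8 by 3.61 (adjusted p = 0.0252), Synpo2, an actin-binding protein, by 2.19 (adjusted p = 0.0324), Psd3, an exchange factor for small GTPases, by 1.51 (adjusted p = 0.021), and Gadl1, a decarboxylase that forms beta-alanine. Gadl1 is given no size here, since it was below background on all WT sham arrays and above it on 1 null sham and 2 null castrated arrays. Another 20 of the 25 were called in null males. Leaving out the 9 arrays with the strongest opposing sex-linked signal leaves 1 null array in each male group. The 4 differences were then 4.21, 2.10, 1.70 and 1.27 in the same order.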

How the data were processed

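RNA of 24 adrenal samples was hybridized to one-colour Agilent arrays. Extraction used a Qiagen kit and the dye was Cy3, per the labels. Per the file headers, the deposited scanner files hold Feature Extraction spot intensities, among them a background-subtracted processed signal. The deposited value table holds log2 values of the authors that correlate above 0.99 with log2 mean signal; its scale, quantile normalization and lack of background subtraction were worked out from the values.

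The log2 processed signal minus each array's 75th percentile (680 to 991 in signal units on the 6 arrays of WT males) was used. Control spots and outlier-marked spots (160 to 217 per WT male array) were left out, and no other spot was saturated. Probes well above background on at least 3 of 24 arrays were kept (36824), the brightest on average standing for its symbol, which gave 31038 features, 20379 with a symbol. Differences were estimated with limma 3.58.1 (R 4.3.3, with the package data.table at version 1.17.8) on 8 group means, with 16 residual and 2.24 prior degrees of freedom. Tables and plots used Python 3.11.15, pandas 2.3.3, numpy 2.4.6 and matplotlib 3.10.9. The number of arrays limits the precision.

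Same-numbered WT male arrays lay on one slide, and their deviations from group means correlated by 0.261, 0.146 and 0.408. Differently numbered arrays correlated by -0.301 to 0.171, so 1 such value exceeded that of pair 2. The numbers were taken as pairs in the fits with slide as a block, and the unpaired fit was kept as the main result.

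The comparison, gene lists and naming rule were chosen with earlier results of these data known. The rule names the 20 largest called rises and the 20 largest called falls with separate groups (by the lower bound where a group was below background, predicted and clone symbols skipped), called members of each list up to 6 or else those with the smallest p up to 2, Kcnk3 and sex-linked genes as checks, the 8 interaction features with the smallest p, and the 5 best correlates of the largest rise and fall. Some genes it takes are not reported here by name and stay in the counts. On simulated data for this comparison, 21 of 100 features changed by 1 log2 unit and 68 of 100 changed by 2 were called, with 6 unchanged features called. The simulated noise was normal and independent, with 1 SD per feature for all groups. It held no slide effect, no transcripts of other tissues and no unequal spread between groups, so these rates may differ in the real data. Probe positions are not given as gene parts, since an mm9 annotation was not used here.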

Additional observations from a re-analysis of the deposited data

Results flagged for a closer look

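The castration responses of WT and null males differed in 25 features by a test of the difference itself (limma, WT minus null). Of the 8 named features with the smallest p, 7 are given here: Tafa4, a chemokine-like secreted protein (4.22), Wipf3 (-3.50), Ankrd34b (-3.30), Macc1 (-6.43), Ecrg4 (2.92), DXBay18 (-2.68) and Clic6 (4.08). None of these 7 was called in WT males, where the differences were 0.58, -0.76, -0.35, -0.33, 0.08, -0.50 and -0.86 in that order. All 7 were called in null males, at -3.64, 2.74, 2.95, 6.10, -2.84, 2.18 and -4.94. The 5 that were also called in WT males were Frzb (4.98), Psd3 (1.51), Cst8 (3.61), Gadl1 (2.33) and Synpo2 (2.19), all with the larger rise in WT. Macc1 was above background on 1 of 6 WT male arrays and on 0 null sham arrays, Tafa4 on 0 null castrated arrays, Clic6 on 2 of 3 null castrated arrays, and Gadl1 on 0 WT sham, 1 null sham and 2 null castrated arrays, so the values of these 4 are fitted against signal not above background and are no exact sizes. All 6 null male arrays have Xist above background. Leaving out the 9 arrays of the series with the strongest opposing sex-linked signal, 4 of them null males, leaves 1 null array in each male group. The differences of the 7 were then 4.70, -3.54, -3.53, -7.60, 2.85, -2.28 and 4.19 in the order above. Those of the 5 were 4.21, 1.27, 2.10, 1.25 and 1.70. The part of the sex-linked signal in these differences was not tested further.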

How the results depend on the processing

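In WT males all 47 called genes that the rule named kept their sign under 21 alternatives, and 18 (16 rises, 2 falls) kept their call in all but the slide block within 6 arrays, which was chosen after the data were seen, calls 0 features and has 4191 at an unadjusted limma p below 0.05. Against 186 called (155 higher, 31 lower), array weights gave 1199 (653 higher, 546 lower, or 54.5% higher against 83.3%). The slide block gave 326 and the 6 arrays alone 118 (106 higher, 12 lower). The replicate block gave 222, normexp with quantile normalization 226, no filter 135 and omission of the 2 liver arrays 183. Omission of the 9 arrays with the strongest opposing sex-linked signal, none of them WT males, gave 151 (138 higher, 13 lower). Of the 21 named falls, 12 lost their call in that fit and 16 with the 6 arrays alone. Of the 26 named rises, 3 and 5 lost it. Leaving out 1 array gave 81 to 131.

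Against 312 called in null males, the slide block gave 546, array weights 1486, the compared groups alone 196, omission of the 9 arrays with the strongest opposing sex-linked signal 12, and leaving out 1 array 134 to 213. For the interaction (25) the slide block gave 46, the replicate block 43, array weights 411, the compared groups alone 53, omission of the liver arrays 13, of the 9 arrays 2, and of 1 array 6 to 25. For testosterone in WT females (28) normexp with quantile normalization gave 95, quantile normalization 43, the authors' deposited values 85, no filter 7, the stricter filter 45, the slide block 136, the replicate block 86, RNA integrity as a covariate 66, array weights 50, the compared groups alone 0, and leaving out 1 array 4 to 45. In null females (65) no filter gave 34, the slide block 150, the replicate block 123, array weights 274, the compared groups alone 0, omission of the 9 arrays 40, and of 1 array 19 to 70.

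The genes that changed sign were all uncalled: Col4a2 (-0.012 without the liver arrays, and -0.012 to 0.32 with 1 array left out), Cubn (0.019 with normexp), Xist (0.064 with normexp, 0.054 in the deposited table) and Kcnk3 (-0.038 with array weights, -0.14 without the liver arrays, and -0.14 to 0.23 with 1 array left out). The cause was not tested. Features near background limit the size of folds: 21 called rises had no sham array above background.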

Other observations

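Some called features lay near each other in the genome. How often as many features drawn from all those tested would do so was not computed, so the counts below do not show clustering. Of 185 with a position (mm9, as the files give them), 58 lay within 500 kb of another, in 24 places, and probes of one place may read one transcript. Each place was bounded by its first and last called feature, so the share called within a place is high by construction. On chromosome 8, 7 of 9 measured features between 89992776 and 90049461 were called higher after castration, by 1.64 to 3.14. They are Cbln1, a secreted synaptic organizer, Gm2694 and 5 lincRNA probes. On chromosome 16, 3 of 4 measured features of a stefin cluster between 36188043 and 36359584, which encode inhibitors of cysteine proteases, rose: Cstdc4 by 3.00, Csta2 by 2.41 and Cstdc5 by 2.16. Neighbouring pairs that rose together included Vnn1 (1.68) and Vnn3 (1.95), pantetheinases, and Cd1d1 (2.15) and Cd1d2 (2.36), which present lipid antigens. These genes were chosen after their values were seen.

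Among the called features, 29 had no symbol and 17 had a predicted or clone symbol, and 19 were lincRNA probes.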
